A study of Mus musculus with 4 samples.

Results

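Type I interferon-stimulated genes were examined in regulatory T cells (Treg cells, the CD4 T cells that carry the transcription factor FOXP3 and restrain other immune cells). The set held 38 genes, taken by symbol from the 19044 gene symbols of the count table. It leaves out the guanylate-binding protein (GBP), immunity-related GTPase (IRG), IFITM and interferon regulatory factor (IRF) genes, many of which respond mainly to interferon-gamma. Treg cells came from spleen and lymph nodes of untreated mice. One genotype carried Foxp3-YFP-Cre, a Cre recombinase with a yellow fluorescent protein expressed under Foxp3 control, and is WT in the labels. The other carried Foxp3-YFP-Cre and Ripk1 fl/fl, a floxed gene of the death-receptor kinase RIPK1, and is Ripk1 knockout in the labels; its libraries are called KO-labelled. Because Cre is driven by Foxp3, deletion is aimed at cells that express Foxp3 or once did, and both genotypes carry the Cre. For each genotype there was 1 rTreg and 1 aTreg library (the usual shorthand for resting and activated Treg cells), so the 4 groups have 1 library each. The sorting gate, the strain, age, sex and number of mice, and any pooling of animals are not stated in the labels.

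Type I interferons bind the receptor made of IFNAR1 and IFNAR2, whose kinases JAK1 and TYK2 act on STAT proteins. The complex ISGF3, which holds STAT2 and IRF9, binds interferon-stimulated response elements in the promoters of target genes, while interferon-gamma acts through separate GAS elements. The targets sense viral nucleic acid, block steps of viral growth, or feed back on the pathway, and T cells, Treg cells among them, express many of them at a low tonic level without infection.

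Promoter stretches are shown for 6 of the genes, chosen so that each of the 3 outcomes described below (lower, higher and not called in the KO-labelled libraries) is seen once with and once without the interferon motif. The motif searched was the core of the interferon-stimulated response element, GAAA followed by any 2 bases and GAAA again, on both strands, and its matches are in capitals, overlapping matches merged. Sequences are those of RefSeq on GRCm38.p6, 5′ to 3′ on the gene's strand, and give the 200 bases before the transcription start, or 250 for Stat2, whose match lies farther out. Rsad2 and Herc6 fell in the KO-labelled libraries, Stat2 and Cmpk2 (the neighbour of Rsad2) rose, and Isg15 and Oasl2 were not called.
Rsad2 (chr12:26456453-26456652, minus strand): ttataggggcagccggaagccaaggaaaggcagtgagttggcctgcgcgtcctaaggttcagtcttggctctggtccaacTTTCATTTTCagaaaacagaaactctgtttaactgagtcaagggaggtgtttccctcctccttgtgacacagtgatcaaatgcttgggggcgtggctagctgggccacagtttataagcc
Herc6 (chr6:57580792-57580991, plus strand): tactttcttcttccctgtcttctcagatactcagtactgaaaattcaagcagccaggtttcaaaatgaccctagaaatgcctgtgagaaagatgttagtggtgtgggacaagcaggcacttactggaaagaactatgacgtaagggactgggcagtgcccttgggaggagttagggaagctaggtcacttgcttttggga
Stat2 (chr10:128270248-128270497, plus strand): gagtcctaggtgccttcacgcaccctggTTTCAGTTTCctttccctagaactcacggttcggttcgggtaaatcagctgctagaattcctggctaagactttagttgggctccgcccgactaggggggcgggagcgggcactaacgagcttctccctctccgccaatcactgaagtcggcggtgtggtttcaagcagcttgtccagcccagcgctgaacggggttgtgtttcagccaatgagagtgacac
Cmpk2 (chr12:26469015-26469214, plus strand): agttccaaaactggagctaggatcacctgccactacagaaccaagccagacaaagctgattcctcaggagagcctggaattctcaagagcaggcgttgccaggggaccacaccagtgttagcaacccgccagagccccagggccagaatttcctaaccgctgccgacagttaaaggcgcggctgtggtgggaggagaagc
Isg15 (chr4:156200819-156201018, minus strand): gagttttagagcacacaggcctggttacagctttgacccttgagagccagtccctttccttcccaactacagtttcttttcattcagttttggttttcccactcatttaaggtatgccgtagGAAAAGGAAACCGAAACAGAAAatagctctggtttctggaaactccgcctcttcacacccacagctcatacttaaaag
Oasl2 (chr5:114896734-114896933, plus strand): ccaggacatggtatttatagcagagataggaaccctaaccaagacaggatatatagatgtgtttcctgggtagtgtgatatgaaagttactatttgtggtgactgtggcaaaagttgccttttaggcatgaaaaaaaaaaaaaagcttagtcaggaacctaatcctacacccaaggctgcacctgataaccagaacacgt

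In windows from 250 bases before to 50 after the start, this core occurred in 1131 of 32851 RefSeq promoter windows (3.44%) and in 15 of the 36 windows of the set (41.7%), which belong to 28 genes. Counted per gene, 14 of the 28 had it in at least 1 window. It was present in 5 of 10 genes that rose in the KO-labelled libraries, 3 of 8 that fell and 6 of 9 that were not called. TTCNNNGAA, the core of the GAS element and its own reverse complement, occurred in 8.30% of all windows and in 7 of the 36 windows of the set (19.4%), which lie in 7 genes, 3 of 10 that rose, 1 of 8 that fell and 3 of 9 not called. The matches are descriptions of letters and not of bound sites. Oas2, Parp9, Tor3a, Ifi204, Rtp4, Parp14, Usp18, Mx1, Ifi27 and Dhx58 have no window.

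The libraries held between 17588754 and 20868319 counts, and 3 counts, the limit that a count of 0 allows, correspond to between 0.143 and 0.17 CPM (counts divided by the library total after TMM scaling in edgeR). Where 4 levels of a gene follow each other, here and below, they belong to WT rTreg, WT aTreg, KO-labelled rTreg, KO-labelled aTreg, in this order of the libraries. Ripk1 was at 83.6, 77.5, 84.7 and 80.8 CPM, and edgeR's test did not call it (Benjamini-Hochberg adjusted p = 0.675). A count over the whole gene checks the loss of floxed exons only weakly, so the name rests on the labels alone, also where a direction is drawn from it. Foxp3 was at 619 to 694 CPM in all 4 libraries. Xist, the X-inactivation RNA, was at 299 and 338 CPM in the WT libraries and at 0.284 and 0.213 CPM in the KO-labelled libraries, so sex and genotype cannot be told apart in any genotype comparison here. Summed markers of CD8 T cells (7.82 to 12.9 CPM), B cells (12.8 to 19.0) and macrophages (1.0 to 1.53) were low beside those of Treg cells (3212 to 3641). Plasma cell markers summed to more, at 77.3, 82.4, 95.3 and 93.5 CPM, and the sum was higher in the KO-labelled libraries. Only 1 of the 3 plasma cell markers averaged 5 CPM or more, so that sum is mostly 1 gene. Conventional dendritic cell markers summed to 0.953, 3.01, 3.12 and 5.38 CPM. Erythroid markers summed to 0.619 and 1.60 CPM in WT rTreg and aTreg and to 9.20 and 10.3 CPM in the KO-labelled libraries, and neutrophil markers to 0.0476 and 0.243 against 2.55 and 0.959. Their part in the genotype results was not tested. Of the plasmacytoid dendritic cell markers, 4 of 5 had a count row and summed to 121, 148, 115 and 138 CPM. The sum was mostly Bst2, itself one of the 38 genes. Most of the rest was Ccr9, at 22.3, 47.4, 13.4 and 39.4 CPM. Ccr9 was called higher in aTreg (log2 change 1.30, edgeR adjusted p = 2.42e-05). It was called lower with the KO label (log2 change −0.47, edgeR adjusted p = 0.00702). What cells carry Ccr9 here was not tested.

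All 38 genes had counts in every library. Genes averaging 5 CPM or more across libraries were tested, a level that 36 of the 38 genes and 9680 genes in all reached. Only Oasl1 of the 36 was under 5 CPM in a library, and Ifi44 and Ifi204 were under the minimum. Per length of exon, which allows genes to be compared, the tested genes had a median level of 19.8 CPM per kb in WT rTreg, 17.5 in WT aTreg, 21.7 in KO-labelled rTreg and 18.1 in KO-labelled aTreg. Bst2, the virion tether tetherin, was highest at 102 to 108 CPM per kb in the 4 libraries. The lowest tested gene was Tor3a in WT rTreg (4.98 CPM per kb) and Oasl1 in KO-labelled aTreg (1.68 CPM per kb). Summed over the 38 genes, CPM was 4287 in WT rTreg, 3789 in WT aTreg, 4728 in KO-labelled rTreg and 4023 in KO-labelled aTreg. Both aTreg sums were below the rTreg sum of the same genotype, and both KO-labelled sums were above the WT sum of the same state. In bulk samples, fewer cells of a type and less RNA per cell cannot be told apart.

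**Figure D1:**
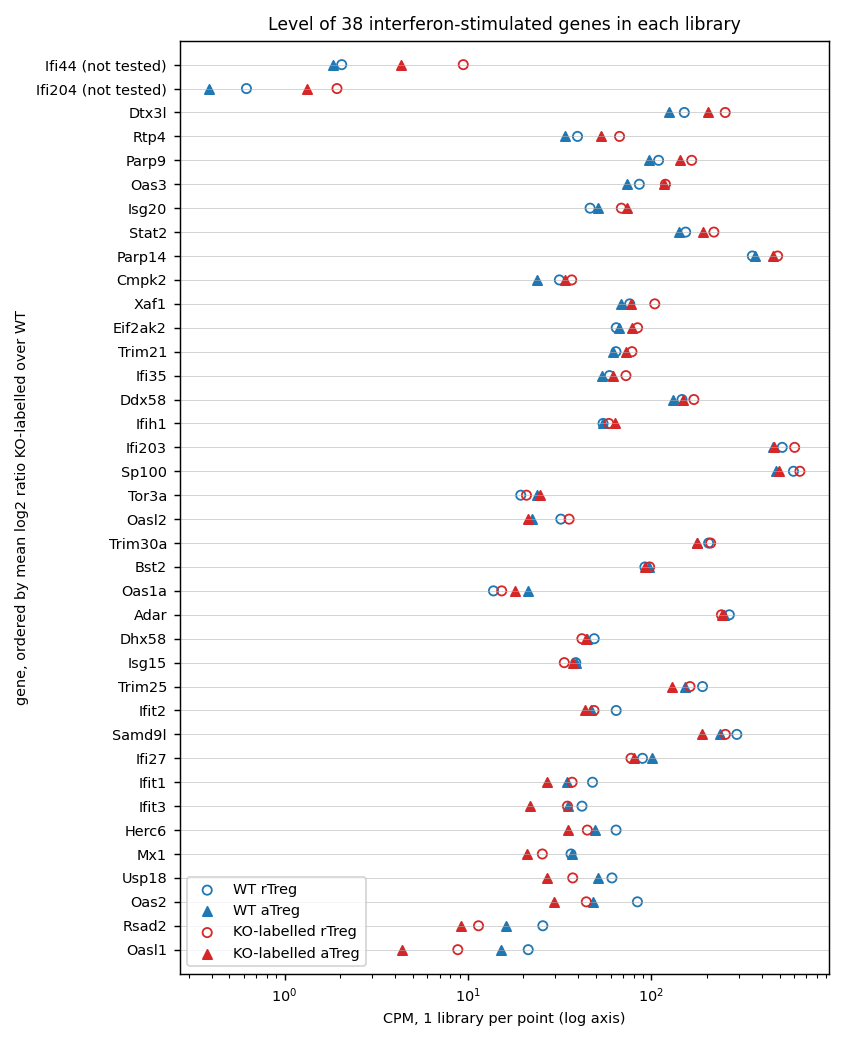
Level of each of the 38 genes (vertical axis, ordered by the mean log2 ratio of KO-labelled over WT) in each of the 4 libraries as CPM on a log axis; blue stands for WT, red for KO-labelled, open circles for rTreg and filled triangles for aTreg. Red symbols lie to the left of blue ones for Oasl1 and Rsad2 at the bottom and to the right for Dtx3l and Rtp4 near the top, while Isg15, Bst2 and Trim30a in the middle have all 4 symbols close together.

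The genes split between the genotypes. In the KO-labelled libraries 13 of the 36 tested genes rose, led by the ubiquitin ligase Dtx3l (1.65-fold) and the antiviral chaperone Rtp4 (1.63-fold), and 12 fell, led by Oasl1 (2.81-fold lower) and Rsad2 (2-fold lower), while 11 were not called. Genes of the same family or the same locus were found on both sides, with Oas3 up and Oas2 down, and Cmpk2 up and Rsad2 down. The calls are from edgeR's quasi-likelihood test with additive terms for state and genotype, fitted to all 4 libraries, at a Benjamini-Hochberg adjusted p of 0.05. Over all tested genes the same test called 24.5% higher and 22.9% lower, so the shares of the set in either direction, 13 and 12 of 36, are read against that background. Either way 25 of the 36 were called, against 47.4% of all tested genes. The median fitted log2 change was 0.03 over the set and 0.00 over all tested genes. Both KO-labelled libraries were above both WT libraries for 14 of the 36 genes and below both for 11, against 33.2% and 31.9% of all tested genes. The error of the test is the spread between state pairs, pooled in part over genes, and need not hold the spread between mice. DESeq2 with the same terms called 7 higher and 7 lower, beside 14.2% and 12% of all tested genes. With the 2 libraries of a genotype as replicates, edgeR called 7 higher and 2 lower, beside 9.71% and 7.24%. The 7 higher were Dtx3l, Rtp4, Parp9, Oas3, Isg20, Stat2 and Parp14 in both, and the 2 lower were Mx1 and Usp18. Oasl1, Rsad2, Oas2 and Herc6 lost their call in that last model (edgeR adjusted p = 0.0505, 0.0593, 0.127 and 0.114).

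Among the cytosolic RNA sensors, Ddx58, which encodes RIG-I, rose slightly and the other two were not called. Ddx58 was at 147, 132, 171 and 149 CPM. The KO-labelled library was the higher in each state (fitted log2 change 0.20, SE 0.0634, edgeR adjusted p = 0.0209), a call that was lost with upper-quartile scaling and in DESeq2. Ifih1, which encodes MDA5, had a fitted change of 0.16 (edgeR adjusted p = 0.118), and Dhx58, which encodes LGP2, one of −0.12 (edgeR adjusted p = 0.284).

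Of the 9 genes of signalling and of protein modification, 5 rose and 3 fell, beside 24.5% and 22.9% of all tested genes. Stat2, the subunit of ISGF3 that is particular to type I and type III interferon signals, was at 154 and 142 CPM in WT rTreg and aTreg and at 219 and 191 CPM in KO-labelled rTreg and aTreg. Both KO-labelled libraries were above both WT libraries, with log2 ratios of 0.51 [0.44 to 0.58] in rTreg and 0.43 [0.36 to 0.50] in aTreg, where brackets give exact 95% counting intervals. Its fitted change was 0.47 (SE 0.0635, edgeR adjusted p = 6.36e-05). Dtx3l and Parp9, which act as a pair in ubiquitination and ADP-ribosylation, were the signalling genes that rose most. Dtx3l was at 151, 125, 253 and 204 CPM, and Parp9 at 109, 96.9, 166 and 144 CPM. For both genes the groups did not overlap, and the ratio was nearly equal in the 2 states, at 0.74 and 0.71 for Dtx3l and 0.60 and 0.57 for Parp9. The fitted rise was 0.73 for Dtx3l (SE 0.0626, edgeR adjusted p = 1.67e-06) and 0.58 for Parp9 (SE 0.0648, edgeR adjusted p = 1.26e-05). The 2 genes share 458 exon bases on opposite strands, 8% of the exons of Dtx3l and 9.40% of those of Parp9, and reads there cannot be told apart without strand. Parp14, another ADP-ribosyltransferase of this locus, rose by 0.39 (edgeR adjusted p = 0.000342), and Trim21, a cytosolic antibody receptor and ubiquitin ligase, by 0.26 (edgeR adjusted p = 0.0127). DESeq2 did not call Trim21.

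Of the 9, Isg15, Usp18 and Herc6 take part in the joining of ISG15 to proteins or its removal, and the last 2 fell. Isg15, a ubiquitin-like protein joined to many targets, was at 38.7, 38.9, 33.5 and 37.3 CPM. The KO-labelled libraries lay just below both WT libraries, and the test did not call it (fitted log2 change −0.13, edgeR adjusted p = 0.271). Usp18, the protease that removes ISG15 and restrains the receptor at IFNAR2, was at 60.9 and 51.2 CPM in WT rTreg and aTreg and at 37.2 and 27.0 in KO-labelled rTreg and aTreg. Every WT library was above every KO-labelled one, and Usp18 fell by 0.81 log2 units (SE 0.0926, edgeR adjusted p = 1.55e-05). Herc6, the main ISG15 ligase of the mouse, was at 64.2, 49.3, 44.7 and 35.3 CPM. The groups did not overlap, and it fell by 0.50 (SE 0.0842, edgeR adjusted p = 0.000338). Trim25, a ubiquitin ligase that acts on RIG-I, fell by 0.23 (edgeR adjusted p = 0.00859), a call that was lost in DESeq2.

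The oligoadenylate synthetase (OAS) family, whose products switch on the RNA-degrading enzyme RNase L, held the gene that fell most and one that rose. Oasl1, a catalytically inactive relative that represses translation of Irf7, lies on chromosome 5 (GRCm38, 114923240 to 114937915, plus strand). It had 447, 310, 155 and 82 counts, which make 21.3, 15.1, 8.80 and 4.37 CPM. Both KO-labelled libraries were below both WT libraries, with log2 ratios of −1.27 [−1.55 to −1.01] in rTreg and −1.76 [−2.15 to −1.43] in aTreg, and Oasl1 fell by 1.49 in the fit (SE 0.175, edgeR adjusted p = 1.93e-05). Oas2 was at 83.9, 48.3, 44.2 and 29.4 CPM. WT rTreg stood well above the other 3 libraries and WT aTreg was just above KO-labelled rTreg. Oas2 fell by 0.83 (SE 0.0880, edgeR adjusted p = 9.29e-06). Oas3 was at 86.0, 73.4, 119 and 118 CPM and rose by 0.58 (SE 0.0737, edgeR adjusted p = 4.09e-05), with both KO-labelled libraries above both WT libraries. Oasl2, which kept synthetase activity, was at 32.1, 22.4, 35.6 and 21.2 CPM, and Oas1a at 13.8, 21.1, 15.3 and 18.1 CPM. For both genes the genotypes overlapped, and neither was called for genotype (fitted log2 changes 0.04 and −0.05, edgeR adjusted p = 0.781 and 0.793).

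Of the 13 tested antiviral effectors, 4 rose and 6 fell, beside 24.5% and 22.9% of all tested genes. Rsad2, which encodes viperin, an enzyme that makes a chain-terminating nucleotide, lies on chromosome 12 (26442746 to 26456452, minus strand). Its level was 25.6, 16.1, 11.4 and 9.17 CPM. Both KO-labelled libraries were below both WT libraries, by log2 ratios of −1.16 [−1.41 to −0.93] in rTreg and −0.80 [−1.08 to −0.54] in aTreg. Rsad2 fell by 1.0 in the fit (SE 0.149, edgeR adjusted p = 0.000134). Mx1, a dynamin-like GTPase that blocks viral ribonucleoproteins, was at 36.5 and 37.0 CPM in WT rTreg and aTreg and at 25.4 and 21 CPM in the KO-labelled libraries. The groups did not overlap and Mx1 fell by 0.67 (SE 0.111, edgeR adjusted p = 0.000324). Samd9l, a restriction factor that acts on translation, fell by 0.27 (edgeR adjusted p = 0.0041). The 3 Ifit genes, whose proteins bind the ends of foreign RNA, fell as well, with fitted changes of −0.46 for Ifit3, −0.37 for Ifit1 and −0.26 for Ifit2 (edgeR adjusted p = 0.00497, 0.00602 and 0.0332). DESeq2 called none of the 3, and in aTreg the interval of Ifit2 held 0 (−0.11 [−0.25 to 0.02]).

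The effectors that rose were Rtp4, Isg20, Cmpk2 and Eif2ak2. Rtp4, a chaperone of membrane receptors that also binds flavivirus replication machinery, was at 39.5, 33.7, 67.0 and 52.9 CPM. Both KO-labelled libraries were above both WT libraries, and Rtp4 rose by 0.71 (SE 0.0857, edgeR adjusted p = 2.64e-05). Isg20, an exonuclease, was at 46.3, 51.0, 68.6 and 74.0 CPM. Again the groups did not overlap, and Isg20 rose by 0.55 (SE 0.0778, edgeR adjusted p = 8.9e-05). Cmpk2, a mitochondrial nucleotide kinase that supplies the substrate of viperin, rose by 0.37 (SE 0.108, edgeR adjusted p = 0.0139), and Eif2ak2, the RNA-activated kinase PKR that stops translation, by 0.31 (edgeR adjusted p = 0.00497). DESeq2 called neither of the last 2. Bst2, Adar (an editor of double-stranded RNA) and Trim30a had fitted changes of 0.01, −0.09 and 0.02 and were not called.

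Of the 6 tested nuclear and other genes, Xaf1, a partner of the apoptosis inhibitor XIAP, rose by 0.32 (edgeR adjusted p = 0.00587), Ifi35 rose by 0.25 (edgeR adjusted p = 0.019) and Ifi27 fell by 0.28 (edgeR adjusted p = 0.00703). DESeq2 called none of these 3. Sp100, a nuclear body protein, Ifi203, a DNA-binding protein of the HIN family, and Tor3a, a torsin ATPase, had fitted changes of 0.09, 0.12 and 0.08 and were not called. The 2 genes below the level minimum were both higher in the KO-labelled libraries. Ifi44 had 43, 38, 166 and 81 counts, log2 ratios of 2.15 [1.71 to 2.72] and 1.18 [0.65 to 1.82]. Ifi204, a DNA-binding relative of Ifi203, had 13, 8, 34 and 25 counts, log2 ratios of 1.49 [0.68 to 2.69] and 1.55 [0.58 to 3.14]. With a minimum of 1 CPM in place of 5, edgeR called both higher, which makes 15 higher and 12 lower.

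**Figure D2:**
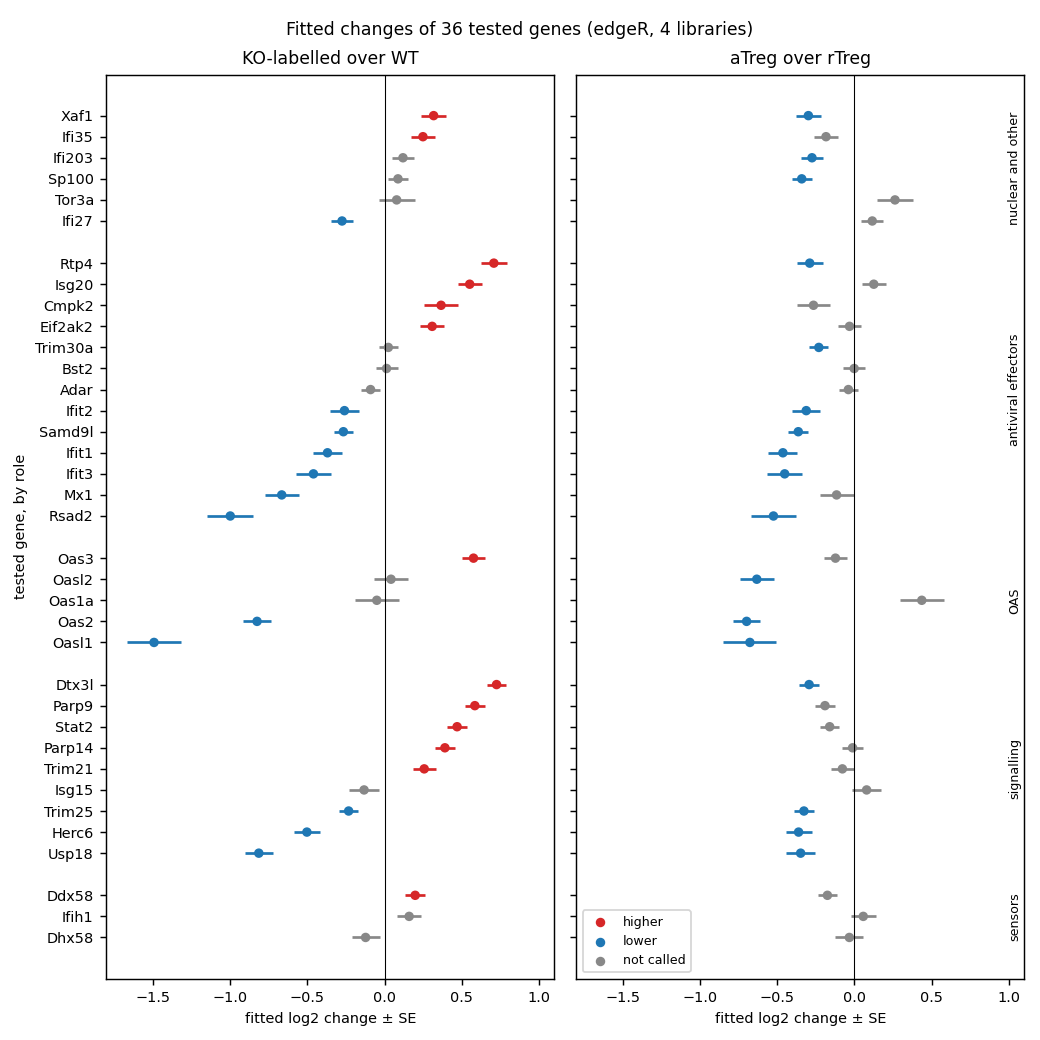
Fitted log2 change with its standard error for each of the 36 tested genes, grouped by role, for KO-labelled over WT (left) and aTreg over rTreg (right), both from edgeR's additive model over 4 libraries; red and blue mark genes called higher and lower, grey those not called. The left side runs from −1.49 for Oasl1 to 0.73 for Dtx3l, whereas on the right every called gene lies below 0.

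The genotype ratios went the same way in both states for 33 of the 36 genes. The same share of all tested genes was not counted. The rTreg pair and the aTreg pair of libraries share no library, and their log2 ratios correlated at r = 0.926 over the 36 genes and 0.868 over all tested genes, where genes are not independent replicates. In rTreg 3 genes were higher and 4 lower by 1.5-fold or more (8.74% and 5.92% of all tested genes), and in aTreg 3 higher and 6 lower (9.77% and 7.98%). By 2-fold or more 0 were higher and 2 lower in rTreg (Oasl1 and Rsad2; 3.41% and 1.34% of all tested genes), and 0 higher and 1 lower in aTreg (Oasl1; 3.95% and 2.17%). The median log2 ratio over the 36 genes was 0.10 in rTreg and −0.0048 in aTreg. The ratio in aTreg minus that in rTreg was −0.50 for Oasl1, −0.41 for Ifit3, −0.37 for Oas1a and 0.35 for Rsad2, the 4 largest differences among the tested genes. Ifit3 was at 41.8 and 35.0 CPM in WT rTreg and aTreg and at 34.9 and 21.9 CPM in KO-labelled rTreg and aTreg, so WT aTreg and KO-labelled rTreg were nearly equal and KO-labelled aTreg stood below the rest. Oas1a was above WT rTreg in KO-labelled rTreg and below WT aTreg in KO-labelled aTreg. With 1 library per group these differences were not tested.

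**Figure D3:**
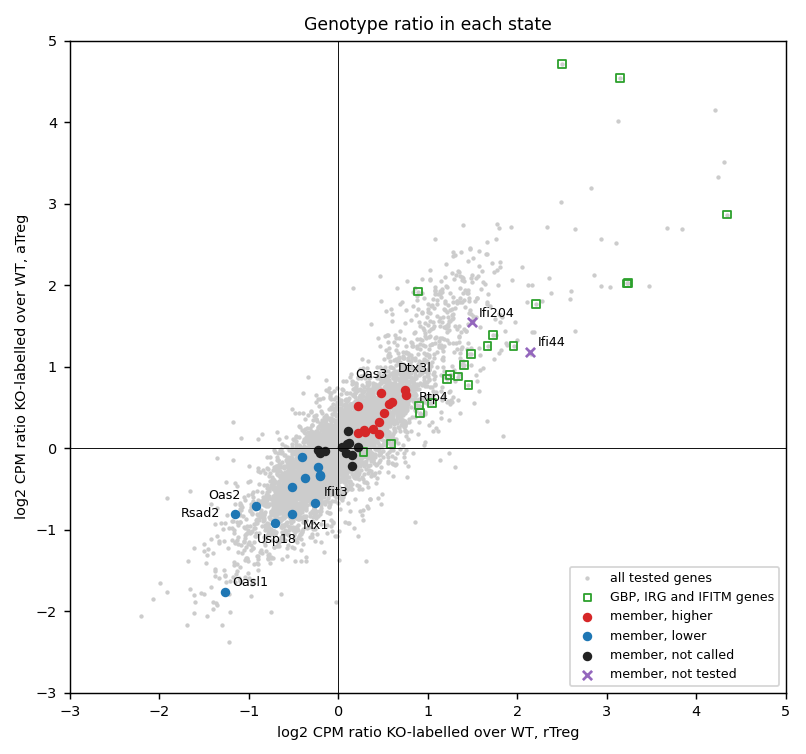
Log2 CPM ratio of KO-labelled over WT in rTreg (horizontal) and aTreg (vertical), 1 point per gene; grey points are all tested genes, green squares the GBP, IRG and IFITM genes, and the other symbols the 38 genes by call. The 38 genes spread along the diagonal on both sides of 0, from Oasl1 at −1.27 and −1.76 to Ifi44 at 2.15 and 1.18, while most green squares lie to the upper right; genes beyond the axis ends, such as Xist, are not shown.

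Genes that lie next to each other did not always move together. Rsad2 and Cmpk2 point away from each other on chromosome 12 with 12752 bases between their start sites, and Rsad2 fell while Cmpk2 rose. Cmpk2 was at 31.5 and 23.7 CPM in WT rTreg and aTreg and at 36.8 and 33.8 CPM in the KO-labelled libraries, both above the WT levels. Oas2 and Oas3 lie on the same strand of chromosome 5, 3244 bases apart, and were called in opposite directions. Oasl1 and Oasl2, with start sites 26304 bases apart on that chromosome, differed too, the first called lower and the second not called. By contrast, Ifit1, Ifit2 and Ifit3 on chromosome 19 all fell, and Parp9, Dtx3l and Parp14 on chromosome 16 all rose. Of all tested genes 24.5% rose and 22.9% fell, and DESeq2 called neither Cmpk2 nor any of the Ifit genes. The start sites of Parp9 and Dtx3l are 681 bases apart.

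**Figure D4:**
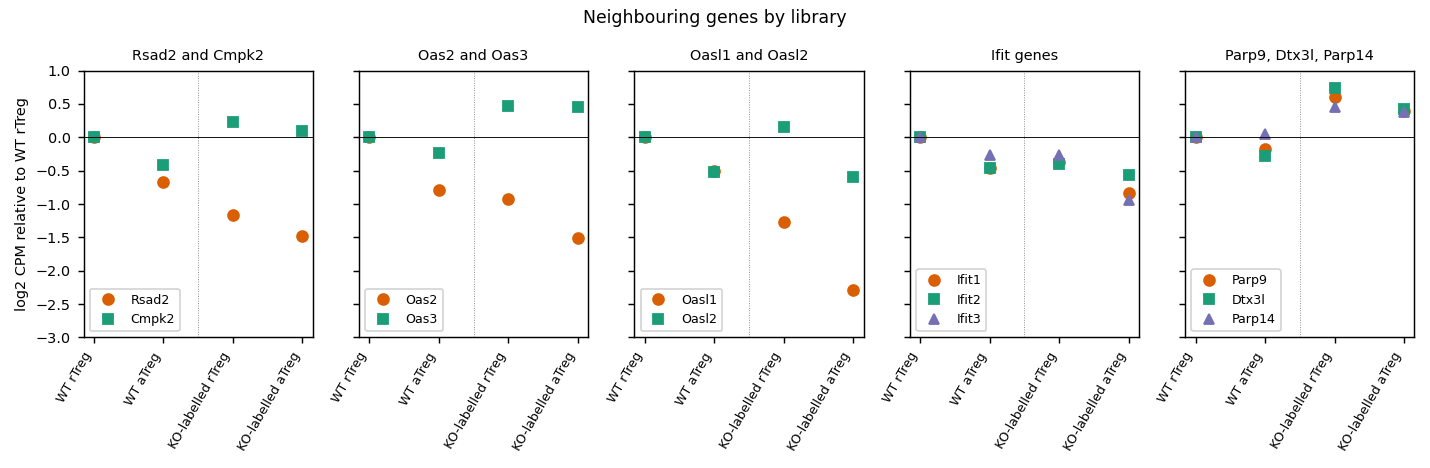
Log2 CPM of neighbouring genes in each library relative to WT rTreg, 1 panel per locus and 1 symbol per gene; the dotted line separates WT from KO-labelled libraries. Rsad2, Oas2 and Oasl1 lie below their neighbours Cmpk2, Oas3 and Oasl2 in both KO-labelled libraries, while the Ifit genes and the genes of the Parp9 locus keep together.

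Between the states, the genes were lower in aTreg or not called. In aTreg 17 of the 36 tested genes fell and 0 rose, with Oas2 (1.62-fold lower), Oasl1 (1.60-fold) and Oasl2 (1.55-fold) changed most, while 19 were not called. Over all tested genes edgeR's additive test called 5.3% lower and 7.87% higher in aTreg, 13.2% in all. At an unadjusted p under 0.05 edgeR had 22 lower and 2 higher (12.3% and 14.3% of all tested genes), and DESeq2 16 lower and 0 higher (5.4% and 7.05%). The median fitted log2 change was −0.21 over the 36 genes and 0.00 over all tested genes. Both aTreg libraries were below both rTreg libraries for 8 of the 36 genes, against 12.9% of all tested genes, and above both for 2, against 14.1%. DESeq2 with the same terms called 4 lower, namely Oas2, Oasl2, Samd9l and Sp100, beside 1.38% of all tested genes. With genotype left out of the model, so that WT and KO-labelled libraries of a state were replicates, edgeR called 0 of the 9680 genes, and 329 genes, 1 of them in the set, had an unadjusted p under 0.05.

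Of the 5 OAS genes, 3 fell in aTreg, beside 5.3% of all tested genes, and each of the 3 was lower in aTreg within both genotypes. The log2 ratio of aTreg over rTreg for Oas2 was −0.79 between the WT libraries and −0.58 between the KO-labelled ones, and it fell by 0.70 (SE 0.0879, edgeR adjusted p = 0.000199). Oasl2 had ratios of −0.52 and −0.75, and both aTreg libraries (22.4 and 21.2 CPM) lay below both rTreg libraries (32.1 and 35.6 CPM). It fell by 0.63 (SE 0.111, edgeR adjusted p = 0.00216). Oasl1 had ratios of −0.50 and −0.99 and fell by 0.68 (SE 0.171, edgeR adjusted p = 0.0195). Oas1a was the gene of the set with the largest positive value, at 0.61 (WT) and 0.24 (KO-labelled), and was not called (fitted 0.44, edgeR adjusted p = 0.0612). Oas3 was not called either (fitted −0.12, edgeR adjusted p = 0.321).

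Among the effectors, Rsad2 fell by 0.52 in aTreg (SE 0.147, edgeR adjusted p = 0.0325), with ratios of −0.67 (WT) and −0.31 (KO-labelled). Ifit1 was at 47.7, 34.6, 37.0 and 26.8 CPM. Both aTreg libraries were below both rTreg libraries, and Ifit1 fell by 0.46 (SE 0.0940, edgeR adjusted p = 0.00549). Ifit3, Ifit2, Samd9l, Trim30a and Rtp4 also fell, by 0.45, 0.31, 0.36, 0.23 and 0.29. Of the signalling genes Herc6, Usp18, Trim25 and Dtx3l fell, by 0.36, 0.35, 0.33 and 0.29, and of the nuclear and other genes Sp100, Xaf1 and Ifi203, by 0.34, 0.30 and 0.27. The RNA sensors Ifih1, Ddx58 and Dhx58 and the genes Isg15, Mx1, Isg20, Bst2 and Stat2 were among those not called.

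In each genotype alone the pattern was small in size. In WT 1 gene was at least 1.5-fold higher in aTreg and 2 were lower (4.49% and 3% of all tested genes), and in the KO-labelled pair 0 were higher and 3 lower (3.06% and 1.48%). On the log2 scale with a prior count of 2, none was 2-fold apart in either genotype, although the plain CPM of Oasl1 in the KO-labelled pair was (log2 −1.01, against −0.99 with the prior count). The shares at 2-fold were 1.87% higher and 0.723% lower of all tested genes in WT and 0.95% and 0.134% in the KO-labelled pair. The median log2 ratio over the 36 genes was −0.17 for WT and −0.22 for the KO-labelled pair, beside 0.00 over all tested genes in both. Of the 36 genes, 24 were lower in aTreg in both genotypes and 6 were higher in both. The ratios of the 2 genotypes, which share no library, correlated at r = 0.736 over the 36 genes and 0.651 over all tested genes. Ifi44, below the level minimum, was lower in aTreg in the KO-labelled pair (−1.11 [−1.53 to −0.73]) and had a ratio of −0.14 in WT.

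The calls for genotype and for state were also set side by side, as counts only. Of the 12 that fell in the KO-labelled libraries, 10 also fell in aTreg, whereas of the 13 that rose in the KO-labelled libraries 3 (Dtx3l, Rtp4 and Xaf1) fell in aTreg. Of the 11 not called for genotype, 4 fell in aTreg. Of all tested genes 5.3% fell in aTreg. The overlap of the calls over all tested genes was not counted, so these counts cannot be read as particular to the set. For the 10 genes that fell in both, WT rTreg was the highest library and KO-labelled aTreg the lowest, an order that largely follows from the calls. A high value in WT rTreg lowers both fitted changes at once. Both comparisons use the same 4 libraries, so these counts give no independent check and no test was made of them.

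The parts of the pathway upstream of these genes also went both ways, as did all tested genes, with 24.5% higher and 22.9% lower for genotype. Among genes of the receptor, its kinases and ISGF3, and beside Stat2 of the set, Irf9 rose by 0.19 (edgeR adjusted p = 0.0216), Jak1 fell by 0.28 (edgeR adjusted p = 0.00565), Tyk2 by 0.27 (edgeR adjusted p = 0.00651) and the receptor chain Ifnar2 by 0.24 (edgeR adjusted p = 0.0224). Of these, DESeq2 did not call Irf9, Tyk2 or Ifnar2. The other chain, Ifnar1, was at 253, 240, 263 and 245 CPM and was not called (edgeR adjusted p = 0.626). Of 9 negative regulators 1 rose, Socs1, an inhibitor of the JAK kinases (0.29, edgeR adjusted p = 0.00736), and 3 fell, among them Usp18 and Ptpn6, a phosphatase (−0.28, edgeR adjusted p = 0.00246). Irf7, the factor that amplifies interferon production, had a fitted change of −0.15 (edgeR adjusted p = 0.0761). Of the type I interferon genes, 4 of the 18 listed had a count row (Ifna2, Ifnab, Ifnk and Ifnz), with at most 5 counts in a library.

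Among nucleic-acid sensing genes 5 of the 15 tested, Ddx58 of the set included, rose with the KO label and 3 fell. The shares of all tested genes were 24.5% and 22.9%. The DNA sensor Cgas was at 8.48, 9.71, 18.8 and 15.9 CPM and rose by 0.93 (edgeR adjusted p = 0.000457), and Sting1, the adaptor that it activates, by 0.54 (edgeR adjusted p = 1.64e-05). Zbp1, a sensor of Z-form nucleic acid that binds RIPK3, was at 206, 169, 372 and 306 CPM and rose by 0.85 (edgeR adjusted p = 4.12e-07). Tlr7, an endosomal RNA receptor, fell by 0.92 (edgeR adjusted p = 9.44e-05) and Irf3, a factor activated by the sensors, by 0.34 (edgeR adjusted p = 0.00119). For these genes the groups did not overlap. Tlr7 lies on chromosome X, and sex and genotype cannot be told apart here.

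Further interferon-induced genes outside the set also divided. With the KO label 21 of 45 tested genes rose and 11 fell, beside 24.5% and 22.9% of all tested genes. The count that fell is near that share. In aTreg 12 fell, beside 5.3% of all tested genes. Ube2l6, the conjugating enzyme for ISG15, rose by 0.97 (edgeR adjusted p = 6.33e-05) and the immunoproteasome subunit Psmb9 by 0.82 (edgeR adjusted p = 5.56e-07). Apol9b fell by 1.38 (edgeR adjusted p = 5.24e-06), Ifi208, a relative of Ifi203, by 1.01 (edgeR adjusted p = 3.76e-07) and Ifit3b by 0.94 (edgeR adjusted p = 0.00361). Ifit3b is a near copy of Ifit3, and Ifi203, Ifi204 and Ifi208 are close relatives. Counting can split or exchange their reads, so their separate values are uncertain.

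Most tested GBP, IRG and IFITM genes, which the set leaves out, rose. Of the 11 GBP genes 10 rose in the KO-labelled libraries, and the median log2 ratio was 1.34 in rTreg and 0.88 in aTreg beside 0.10 and −0.0048 for the 36 genes. All 10 tested IRG and IFITM genes rose, with medians of 1.94 and 1.85. Among them Gm4951, F830016B08Rik, Ifitm1 and Ifitm2 were under 5 CPM in both WT libraries. They reached the level minimum only through the KO-labelled libraries, so the filter favoured their rise and raised the count and the medians. Of the 9 IRF genes 4 rose, among them Irf8 (1.33, edgeR adjusted p = 3.82e-07) and Irf1 (0.64, edgeR adjusted p = 1.66e-05), and 1, Irf3, fell. In none of the 36 tested genes did the ratio reach the GBP median of rTreg, the highest being 0.76 for Rtp4. Ifi44 (2.15 in rTreg) and Ifi204 (1.49), the genes of the set below the level minimum, were above that median. The genotype test called 24.5% of all tested genes higher and 22.9% lower. The GBP, IRG, IFITM and IRF lists were compared as counts and medians only.

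In the authors' deposited table, which compares the genotypes with rTreg and aTreg libraries together, 8 of the 38 genes have an adjusted p under 0.05 and are higher in the KO-labelled libraries, beside 9.61% of all genes with an adjusted p there. They are Isg20, Oas3, Stat2, Ifi44, Rtp4, Parp9, Parp14 and Dtx3l in the authors' deposited table. A further 5 are lower there (Rsad2, Oasl1, Oas2, Mx1 and Usp18), beside 7% of all genes, and 25 are not called in the authors' deposited table.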

How the data were processed

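Messenger RNA was sequenced in 4 libraries, 1 for each combination of genotype (WT, Ripk1 knockout) and state (rTreg, aTreg). Libraries were made with a SMARTer kit from RNA extracted with TRIzol, per the labels' protocols. Reads were processed with HISAT2 2.2.1 and featureCounts 2.0.1 on GRCm38, as named in the submitters' processing notes. Annotation and strand setting: not given in the sources used here. The deposited count table holds whole-number counts per gene symbol, left unnormalized by the authors. The other deposited table, per the file headers, holds variance-stabilised values on a log2-like scale, a mean signal per gene (counts divided by size factors), a log2 fold change, its test statistic (a score), and a p-value with its adjusted p-value.

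Library sizes were scaled with TMM (edgeR 4.0.16, R 4.3.3), with factors between 0.995 and 1.006, and genes averaging 5 CPM or more were tested (9680 genes holding 99.3% of all counts). Ratios of single libraries used log2 CPM with a prior count of 2, whereas the exact binomial intervals at 95% use plain counts and cover counting error only. The test for genotype and state was edgeR's quasi-likelihood F test, additive over the 4 libraries with 1 residual degree of freedom and 11.8 prior ones, with Benjamini-Hochberg adjustment over all tested genes. Nothing shows that libraries are separate mice, so p-values reflect the spread of these libraries alone. "Rose" and "fell" are kept for genes that passed it. DESeq2 1.42.0, other scalings, minimums and prior counts, the deposited log2 values and a single-factor model were alternatives. The method was tested on simulated data. These were drawn as independent libraries without a separate spread between mice, so they cannot show that the p-values hold here. Gene lengths and overlaps come from GENCODE M21, promoters from RefSeq.

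The set of 38 genes, the other gene lists and the tests were chosen with earlier results of these data known. Values in every library are given for the 6 genes per direction that changed most with genotype, the 5 that changed most with state, the 4 with the largest difference of genotype ratios between states and those at least 2-fold apart in any contrast, with up to 3 genes per direction of the other lists. A few results are not reported here.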

Additional observations from a re-analysis of the deposited data

Results flagged for a closer look

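The state ratio had opposite signs in the 2 genotypes, with both counting intervals clear of 0, for Parp14. It had a log2 ratio of aTreg over rTreg of 0.055 between the WT libraries and −0.079 between the KO-labelled ones. The WT interval reached down to 0.009, and the median over all tested genes moved by up to 0.0516 between scalings. The sign in WT therefore lies close to what the choice of scaling can change. The difference was not tested, since 1 library per group leaves no error for it.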

How the results depend on the processing

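The counts of genes at least 1.5-fold apart depended on the setting. With a threshold of 2-fold they were 0 higher and 0 lower for state in WT (1 and 2 at 1.5-fold), 0 lower in the KO-labelled pair (3; Oasl1 is past 2-fold only without the prior count), 0 higher and 2 lower for genotype in rTreg (3 and 4), and 0 higher and 1 lower in aTreg (3 and 6). Between the authors' variance-stabilised values, which compress low genes, they were 0 higher and 1 lower for state in WT, 0 lower in the KO-labelled pair, 1 higher for genotype in rTreg, and 1 higher and 2 lower in aTreg. With a minimum of 1 CPM or none, 5 were lower for state in the KO-labelled pair, where Ifi44 joined and Oas2, at −0.585 before, crossed the threshold, and 5 were higher for genotype in each state, where Ifi44 and Ifi204 joined. DESeq2 called 7 higher and 7 lower for genotype (13 and 12 in edgeR's additive test) and 4 lower for state (17). The model with a single factor called 7 higher and 2 lower for genotype and 0 lower for state, and without a minimum 8 were lower for state. Upper-quartile scaling reversed the sign of the genotype change of Oasl2 (−0.0052), Ifnar1 (−0.0075) and Ripk1 (−0.0075), none of them called. Scaling by DESeq2 size factors or by library totals changed no call among the 36 genes. No paired analysis was possible because each group has 1 library, and state already stands as a term in the genotype test. Leaving out a library leaves 3 libraries for 3 coefficients and no test, and the single-pair ratios stand in its place. Depth limits Ifi44 and Ifi204, with 8 to 166 counts in a library.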
